A study of Mus musculus with 8 samples.

Results

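The 31 genes described here encode folding helpers of the endoplasmic reticulum (ER), the sensors of the unfolded protein response (UPR) and the machinery of ER-associated degradation (ERAD). They were chosen by name, with earlier results of these data known, so the shares called are descriptions and no independent test. Each of the 31 was found in the deposited table of raw counts, which lists 24421 gene symbols. All 31 passed the filter on low counts, which left 13540 genes to test. RNA was sequenced from endothelial cells, the lining cells of blood vessels, sorted from mouse embryonic brain at E14.5 (embryonic day). The groups were Flvcr2 knockout (4 libraries) and Flvcr2 heterozygous (4 libraries), both of the C57Bl6 strain. Flvcr2 encodes a membrane transporter, and both groups carry the mutant allele, from which cells express GFP; the sorted cells were positive for GFP and for the endothelial surface protein CD31. The comparison therefore sets cells with no intact allele, per the labels, beside cells with a mutant and an intact allele, and no wild-type group was analysed here. Each library came from 2000 to 5000 cells. Nothing in the labels ties each library to an embryo of its own, so the p-values speak only for variation among these 8 libraries, which could be technical.

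Secreted and membrane proteins fold inside the ER, where the chaperone BiP (Hspa5), lectins, disulfide isomerases and prolyl isomerases assist them. When unfolded protein builds up, the sensors IRE1 (Ern1), ATF6 and PERK (Eif2ak3) respond. IRE1 splices the Xbp1 messenger RNA, ATF6 is cut to release a transcription factor, and PERK slows translation while favouring that of ATF4. Proteins that cannot fold are moved back to the cytosol by the Sel1l and Syvn1 complex and degraded. Developing vessels secrete large amounts of basement membrane, whose collagens and laminins fold in this compartment. Counts per gene symbol do not separate spliced from unspliced Xbp1, nor protein activity from transcript level.

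The best known control sequences of these genes are the ER stress response elements, to which ATF6 and XBP1 bind together with NF-Y. The long form, ERSE, is CCAAT and CCACG with 9 bases of any kind between them, and the short form, ERSE-II, is ATTGG and CCACG with any 1 base between them. Both were searched on both strands of a window of 300 bases, 250 before and 50 after each start site, taken from RefSeq on build GRCm38.p6. Such a window was matched for 27 of the 31 members; Hyou1, Manf, Atf6 and Derl1 had no entry. ERSE was found for 9 of the 27 members, against 18 of 10758 tested genes with a window (0.167%), these 9 included. ERSE-II was found for 2 of 27, against 8 of 10758 (0.0744%), these 2 included. Both elements were picked as known control sequences of these genes, so the higher shares among members are no independent result. No member's window held both forms. The ERSE matches are shown first, because this element was found in more of the members' windows than any other searched, each read on the strand that carries it and with the 2 boxes of the element in capitals.
Hspa5: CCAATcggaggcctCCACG
Hsp90b1: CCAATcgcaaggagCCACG
Hsp90b1: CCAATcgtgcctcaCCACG
Dnajc3: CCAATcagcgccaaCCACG
Calr: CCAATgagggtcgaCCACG
Canx: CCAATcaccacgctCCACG
Pdia6: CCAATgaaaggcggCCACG
Creld2: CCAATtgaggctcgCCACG
Syvn1: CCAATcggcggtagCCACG
Derl3: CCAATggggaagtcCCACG
The ERSE-II matches are given in the same way.
Dnajb11: ATTGGcCCACG
Herpud1: ATTGGgCCACG
Each match lay upstream of the start site except that of Dnajb11, which lay 7 to 17 bases downstream. The Hspa5 match lay 65 to 47 bases and the Syvn1 match 44 to 26 bases upstream. A match is a description of letters in a window and does not show that a factor binds there.

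Of the 6 members called higher in knockout cells, 3 held an element, namely Herpud1, Creld2 and Syvn1. Their promoters are shown so that the surroundings can be read, with the element in capitals.
Herpud1 promoter, chr8:94386179-94386478, + strand: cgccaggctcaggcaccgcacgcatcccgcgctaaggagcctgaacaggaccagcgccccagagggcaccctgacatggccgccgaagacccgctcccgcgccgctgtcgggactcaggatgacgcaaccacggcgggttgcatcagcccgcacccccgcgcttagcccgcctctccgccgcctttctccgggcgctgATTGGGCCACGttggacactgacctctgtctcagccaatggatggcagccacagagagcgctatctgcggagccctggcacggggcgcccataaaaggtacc
Creld2 promoter, chr15:88819396-88819695, + strand: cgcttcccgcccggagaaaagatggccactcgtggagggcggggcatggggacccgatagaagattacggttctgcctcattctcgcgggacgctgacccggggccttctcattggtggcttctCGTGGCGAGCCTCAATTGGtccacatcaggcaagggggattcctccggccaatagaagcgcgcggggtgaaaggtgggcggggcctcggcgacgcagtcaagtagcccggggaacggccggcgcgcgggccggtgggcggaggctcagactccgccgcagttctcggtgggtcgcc
Syvn1 promoter, chr19:6046326-6046625, + strand: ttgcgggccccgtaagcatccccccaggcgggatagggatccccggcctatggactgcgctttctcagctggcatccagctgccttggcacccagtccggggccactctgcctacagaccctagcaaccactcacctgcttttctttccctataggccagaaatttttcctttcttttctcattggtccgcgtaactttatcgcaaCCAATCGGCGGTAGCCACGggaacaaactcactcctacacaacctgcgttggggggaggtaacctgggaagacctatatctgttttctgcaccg
The Creld2 element lies on the opposite strand, so its capitals read CGTGG first and ATTGG last. The Herpud1 window also held TGATGCAAC, 113 to 105 bases upstream on the opposite strand. It matches the ATF4 element CARE, searched as TGATGNAAN on both strands, which was found for 1 of 27 members and for 290 of 10758 tested genes (2.70%). The XBP1 sequence TGACGTGG was in no member's window and in those of 119 tested genes (1.11%). The other called members, Vimp, Xbp1 and Ppib, had none of the 4 sequences in their windows. Of the 11 members with either ER stress element 3 were called, and of the 16 with a window and neither element 3 were called. Over all tested genes 5.53% were called higher. The median log2 fold changes were 0.38 with an element and 0.41 with neither, and this difference was not tested.

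The libraries held 9.11 to 35.9 M counts, and no 2 libraries of a group agreed within sampling noise. Flvcr2, listed under its older symbol Mfsd7c, averaged 301 ± 73.6 CPM (counts scaled to a common library size after TMM) in knockout and 427 ± 124 CPM in heterozygous libraries (SD, n = 4 each). Whether these reads come from the mutant allele was not tested, so this level does not check the labels. The 10 endothelial markers summed to 6362 to 8963 CPM in knockout and 5164 to 9152 CPM in heterozygous libraries. Of these 10, Emcn was called higher (640.2 ± 98.0 CPM in knockout and 281 ± 47.8 CPM in heterozygous libraries; edgeR adjusted p = 0.00321) and 0 lower. The sort marker CD31 is encoded by Pecam1, which averaged 857 ± 206 CPM in knockout and 524 ± 151 CPM in heterozygous libraries and was not called (edgeR adjusted p = 0.0936), nor was Cldn5, at 2775 ± 300.2 and 3796 ± 836 CPM (0.140). Markers of other cell types differed by list. Neuron markers (8 of 8 tested, 6 lower) summed to 83.3 to 244 CPM in knockout and 261 to 1664 CPM in heterozygous libraries. Pericyte markers (2 of 8 lower) summed to 22.6 to 170.4 and 170.9 to 274 CPM, microglia markers (1 of 8 lower) to 98.8 to 638 and 380 to 1098 CPM, and erythroid markers (2 of 4 tested lower) to 17.6 to 51.8 and 228 to 611 CPM. Radial glia markers (3 of 8 lower) summed to 1319 to 1564 and 1301 to 1414 CPM, so their sums overlapped. Vim made up most of these sums, at 1059 ± 124 CPM in knockout and 868 ± 118 CPM in heterozygous libraries. Nes ranged from 229 to 315 and from 152 to 249 CPM. Pax6, Slc1a3, Lhx2, Fabp7, Sox2 and Hes5 had log2 fold changes of -2.67 to -1.11, and the median of the list was -1.76. Fibroblast markers (0 of 7 called by edgeR) summed to 107 to 607 and 222 to 417 CPM, with the highest sum in knockout 3. No marker of these lists was at 0 in every library. The mean log2 CPM over these non-endothelial lists ran from 2.58 to 3.88 in knockout and from 4.75 to 5.70 in heterozygous libraries, so the genotypes did not overlap on it. In sorted bulk cells, fewer cells of a type and less RNA per cell cannot be told apart. Knockout 1 and heterozygous 2 stood apart from the other libraries, with 1 and 0 counts of Xist and 914 and 331 counts of the Y-linked gene Ddx3y, against 229 to 1135 and 0 to 56 in the rest.

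Of the 31 members, 6 rose in knockout cells relative to heterozygous cells and 0 fell (edgeR quasi-likelihood test, adjusted p under 0.05 over all tested genes). Over all tested genes 9.55% were called, 5.53% higher and 4.02% lower. The 6 genes were Herpud1, Vimp, Syvn1, Creld2, Xbp1 and Ppib, and their increases ran from 1.55-fold to 2.35-fold. DESeq2 called 8 higher, adding Dnajb11 and Pdia3, against 8.56% of its tested genes, and limma voom called 6, against 5.83%; neither called a member lower. At an unadjusted p under 0.05, edgeR had 14 members higher and 1 lower, Fkbp2. In either direction these were 15 of 31 members, against 3473 of 13540 tested genes. The members are abundant genes, with a median level at the 84.0th percentile of tested genes. Among genes of at least 5 CPM in 4 libraries, 6 of 29 members and 6.87% of all genes were higher. That filter kept 10335 genes, so it does not match the members in abundance. The median log2 fold change was 0.38 over the members and -0.03 over all tested genes, and 28 of 31 members were above 0, against 47.9% of all tested genes.

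**Figure D1:**
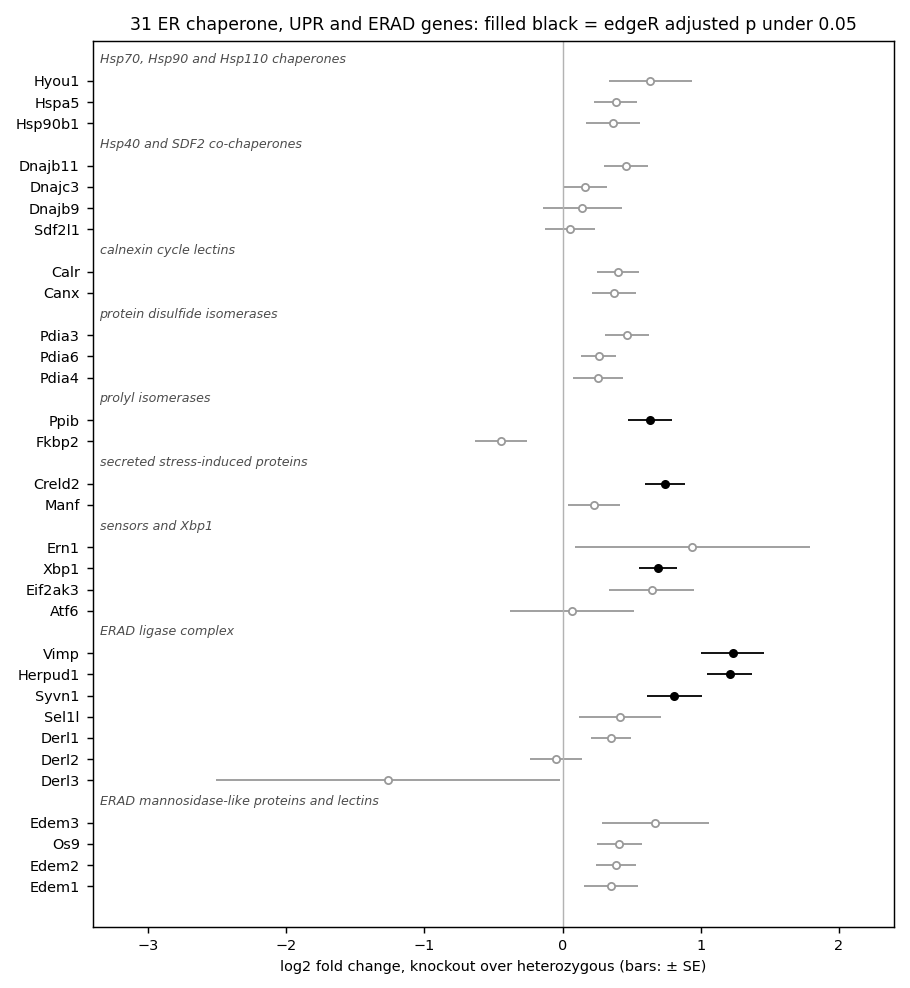
Log2 fold change of each member, knockout over heterozygous, by role, with bars of ± SE from the edgeR fit. Filled black points mark the 6 genes with an adjusted p under 0.05; 28 of 31 points lie right of 0 and 3 (Fkbp2, Derl2 and Derl3) lie left of it.

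The groups did not overlap for 10 members, all higher in knockout, against 9.7% of all tested genes in that direction and 7.9% in the other. These were the 6 called genes with Dnajb11, Pdia3, Pdia6 and Edem2. Summed over the 31 members, transcripts made up 0.838%, 0.776%, 0.783% and 0.883% of all counts in knockout libraries 1 to 4, against 0.583%, 0.736%, 0.676% and 0.651% in heterozygous libraries 1 to 4. The share was 0.820 ± 0.0503% in knockout and 0.661 ± 0.0632% in heterozygous libraries (SD, n = 4 each), and the groups did not overlap. Among heterozygous libraries the share was lowest in library 1 and highest in library 2, which had the highest and the lowest non-endothelial score. Among knockout libraries the order was not the same: library 2 had the lowest share and, next to library 4, the lowest score.

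**Figure D2:**
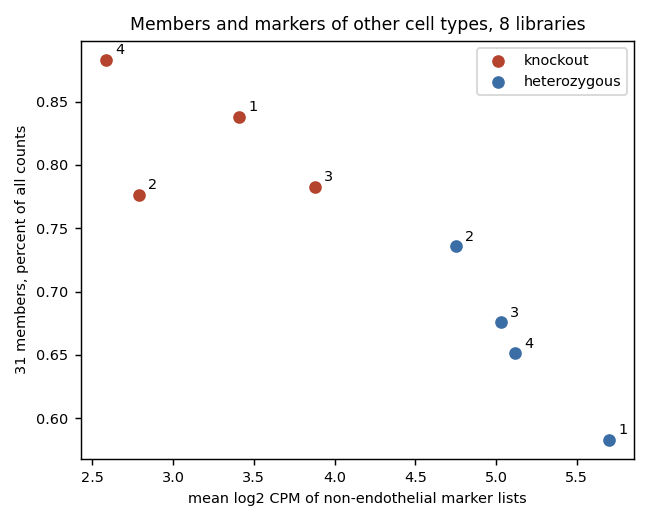
Share of all counts taken by the 31 members (percent) against the mean log2 CPM of the non-endothelial marker lists, 1 point per library, numbered within its group. Knockout libraries lie at scores of 2.58 to 3.88 and shares of 0.776% to 0.883%, and heterozygous libraries at 4.75 to 5.70 and 0.583% to 0.736%.

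The largest increases were those of Vimp and Herpud1, in the ligase complex of ERAD, where 3 of 7 members rose, against 5.53% of all tested genes. The median log2 fold change of that complex was 0.41, against 0.67 for the sensors and Xbp1. Herpud1, a membrane protein that links the Syvn1 complex to the proteasome, had 137, 136, 130 and 172 CPM in knockout libraries 1 to 4, against 62.7, 77.4, 53.9 and 55.4 CPM in heterozygous libraries 1 to 4. Every knockout library was above every heterozygous library, and the increase was 2.31-fold (log2 fold change 1.21 ± 0.16, SE; edgeR adjusted p = 0.00266). Vimp, also named Selenos, a selenoprotein that brings the extraction ATPase VCP to the ER membrane, had 190, 174, 193 and 132 CPM in knockout and 66.2, 50.1, 70.2 and 107 CPM in heterozygous libraries. The highest heterozygous library, 4, lay close to the lowest knockout library, also 4, and the increase was 2.35-fold (log2 fold change 1.23 ± 0.23; edgeR adjusted p = 0.00930). Syvn1, the ubiquitin ligase of the complex, had 114, 60.1, 80.6 and 90.7 CPM in knockout and 41.0, 55.0, 52.1 and 49.4 CPM in heterozygous libraries. Knockout 2 was little above the heterozygous libraries, and the increase was 1.75-fold (log2 fold change 0.81 ± 0.20; edgeR adjusted p = 0.0317).

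Herpud1 lies on chromosome 8 (94386429 to 94395371), Vimp on chromosome 7 (66079649 to 66089405) and Syvn1 on chromosome 19 (6046576 to 6053718) of GRCm38, all on the + strand. Herpud1 and Vimp were called in each of the 8 edgeR fits that left out 1 library, with log2 fold changes of 1.11 to 1.33 and of 1.09 to 1.47. Syvn1 was called in 2 of 8, without knockout 2 (adjusted p = 0.0111) and without knockout 3 (0.0375). It was not called without heterozygous 1, 2, 3 or 4 (edgeR adjusted p = 0.0823, 0.0543, 0.0637 and 0.0592) or knockout 1 or 4 (0.0812 and 0.0775), with log2 fold changes of 0.66 to 0.95 over the 8 fits. Without heterozygous 2 and knockout 1 together, Vimp and Syvn1 were not called (edgeR adjusted p = 0.0645 and 0.122), with log2 fold changes of 1.05 and 0.71, while Herpud1 was (adjusted p = 0.0218).

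The other genes of the ligase complex did not pass the test. Sel1l, the adaptor that holds Syvn1 in place, ranged from 64.1 to 155 CPM in knockout and from 55.5 to 118 CPM in heterozygous libraries. The derlins form the membrane passage with Syvn1. Derl1 averaged 173 ± 18.4 CPM in knockout and 136 ± 16.7 CPM in heterozygous libraries (log2 fold change 0.35 ± 0.14; edgeR adjusted p = 0.150), and Derl2 ranged from 41.8 to 49.1 and from 34.9 to 59.3 CPM. Derl3 was near the detection limit, with 0.869, 0, 0 and 1.44 CPM in knockout and 0.475, 1.49, 2.60 and 1.17 CPM in heterozygous libraries, and no fold is given.

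None of the mannosidase-like proteins and lectins that pick out misfolded glycoproteins passed the test, though each of the 4 had a log2 fold change above 0 (0.35 to 0.67). Edem2, which starts mannose trimming, had 144, 115, 131 and 148 CPM in knockout, against 86.2, 105, 107 and 114 CPM in heterozygous libraries. These ranges did not overlap, but knockout 2 and heterozygous 4 lay side by side (log2 fold change 0.38 ± 0.14; edgeR adjusted p = 0.124). Os9, a lectin that hands trimmed glycoproteins to Sel1l, had 165, 104, 125 and 152 CPM in knockout and 100.2, 105, 110.2 and 95.4 CPM in heterozygous libraries, with knockout 2 inside the heterozygous range. Edem1 averaged 90.0 ± 21.5 and 70.8 ± 10.7 CPM, and Edem3 12.6 ± 2.73 and 7.89 ± 3.48 CPM (edgeR adjusted p = 0.295 and 0.306).

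Of the sensors and Xbp1, only Xbp1 passed the test, and the difference between Xbp1 and the sensors was not tested. Xbp1, the transcription factor gene downstream of IRE1, had 512, 494, 549 and 497 CPM in knockout, against 300.1, 387, 277 and 310 CPM in heterozygous libraries. The knockout libraries were close together and all above the heterozygous ones, an increase of 1.61-fold (log2 fold change 0.69 ± 0.14; edgeR adjusted p = 0.0127). It was called whichever single library was omitted (8 fits) (log2 fold change 0.63 to 0.80) and without heterozygous 2 and knockout 1 (edgeR adjusted p = 0.0469). Xbp1 lies on chromosome 11 (5520641 to 5525993, + strand).

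The sensor genes varied widely within groups. Eif2ak3, which encodes PERK, had 40.9, 14.6, 30.2 and 39.8 CPM in knockout and 16.7, 23.3, 24.0 and 16.5 CPM in heterozygous libraries; knockout 2 was the lowest of the 8 (log2 fold change 0.64 ± 0.31; edgeR adjusted p = 0.220). Without knockout 2, Eif2ak3 was called, with a log2 fold change of 0.88 (edgeR adjusted p = 0.0432). Atf6 had 26.4, 7.84, 11.0 and 28.4 CPM in knockout and 16.7, 29.6, 13.0 and 11.3 CPM in heterozygous libraries, fully overlapping. Ern1, which encodes IRE1, had 3.17, 0.174, 3.25 and 3.35 CPM in knockout and 0.760, 1.70, 2.01 and 0.721 CPM in heterozygous libraries. Knockout 2 was again the lowest, and the remaining knockout libraries were above the heterozygous ones. The log2 fold change was 0.94 ± 0.85 (edgeR adjusted p = 0.531). Ern1 was near the detection limit, with a count of 2 in knockout 2 and of 8 to 47 in heterozygous libraries. Like Derl3, it was left out by the filter of at least 5 CPM in 4 libraries.

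**Figure D3:**
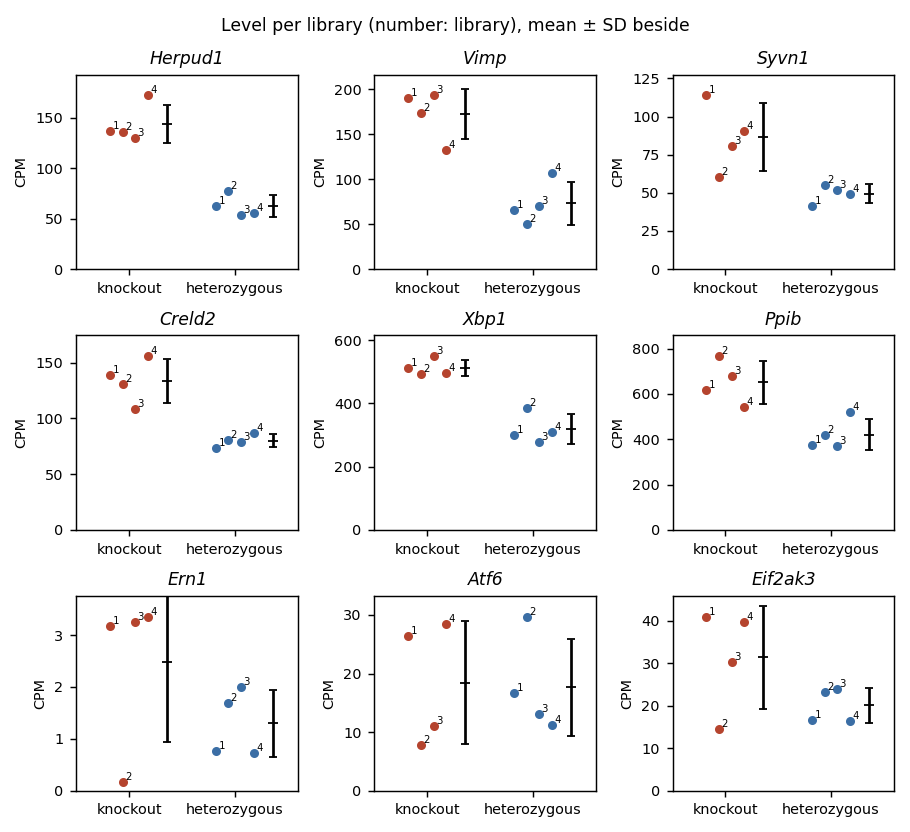
CPM of the 6 called members and the 3 sensors in each library (points, numbered within the group), with the mean ± SD beside each group (n = 4). For the 6 called genes the knockout points lie above all heterozygous points; for Ern1, Atf6 and Eif2ak3 the groups overlap, with knockout 2 the lowest point of each.

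Among the general chaperones 0 of 3 passed the test (edgeR; 1 at an unadjusted p under 0.05, Hspa5). Hspa5, the Hsp70 chaperone BiP and the usual readout of the UPR, had 1243, 1042, 1019 and 1368 CPM in knockout, against 752, 1031, 962 and 835 CPM in heterozygous libraries. Knockout 3 was below heterozygous 2, and the difference was 1.31-fold (log2 fold change 0.38 ± 0.15; edgeR adjusted p = 0.148). Hsp90b1, the Hsp90 family chaperone GRP94, averaged 491 ± 105 CPM in knockout and 382 ± 76.3 CPM in heterozygous libraries (edgeR adjusted p = 0.269); 9.75% of its 50-base stretches occur in transcripts of other genes. Hyou1, a nucleotide exchange factor for BiP, averaged 44.8 ± 14.3 and 28.9 ± 10.7 CPM (log2 fold change 0.63 ± 0.30; edgeR adjusted p = 0.211). The lectins of the calnexin cycle, which bind new glycoproteins, were similar in size of difference. Calr had 986, 895, 799 and 961 CPM in knockout and 569, 846, 681 and 665 CPM in heterozygous libraries, overlapping only through heterozygous 2 and knockout 3 (log2 fold change 0.40 ± 0.15; edgeR adjusted p = 0.124). Canx averaged 428 ± 64.3 and 330 ± 50.6 CPM (log2 fold change 0.37 ± 0.16; edgeR adjusted p = 0.173).

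The disulfide isomerases form and reshuffle disulfide bonds, and Pdia3 works with the lectins. Pdia3 had 1340, 1273, 1173 and 1290 CPM in knockout, against 672, 1039, 970 and 996 CPM in heterozygous libraries. The ranges did not overlap, but the difference did not pass edgeR's test (log2 fold change 0.47 ± 0.16; adjusted p = 0.0894). Pdia6 had 910, 987, 921 and 968 CPM in knockout and 689, 884, 797 and 787 CPM in heterozygous libraries, a difference of 1.20-fold without overlap (edgeR adjusted p = 0.219). Pdia4 averaged 341 ± 77.4 and 285 ± 38.3 CPM (edgeR adjusted p = 0.403).

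Co-chaperones of BiP were the least changed group by median log2 fold change apart from the prolyl isomerases, at 0.15 over 4 genes, and none passed the test. Dnajb11 had 191, 137, 162 and 179 CPM in knockout and 96.5, 136, 128 and 126 CPM in heterozygous libraries, where knockout 2 and heterozygous 2 were nearly equal (log2 fold change 0.46 ± 0.16; edgeR adjusted p = 0.0984). Dnajb9, an inhibitor of IRE1 and a typical XBP1 target, had 12.2, 11.6, 20.6 and 9.75 CPM in knockout and 13.3, 13.0, 10.9 and 11.9 CPM in heterozygous libraries. Its groups overlapped, with a log2 fold change of 0.14 ± 0.29 (edgeR adjusted p = 0.795). Dnajc3, which binds unfolded protein and hands it to BiP, averaged 112 ± 3.97 and 99.9 ± 17.9 CPM. Sdf2l1, which keeps substrates of BiP soluble, averaged 50.2 ± 7.33 and 48.5 ± 8.03 CPM, with a log2 fold change of 0.05 ± 0.18 (edgeR adjusted p = 0.883). This small difference fell below 0 when scaled by library size only or by upper-quartile factors, and without heterozygous 3 or knockout 4.

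Of the secreted stress-induced proteins, Creld2 rose. It had 139, 131, 108 and 156 CPM in knockout, against 73.2, 80.6, 78.7 and 87.3 CPM in heterozygous libraries, without overlap (1.67-fold; log2 fold change 0.74 ± 0.15; edgeR adjusted p = 0.0125). It was called whichever single library was omitted (8 fits) (log2 fold change 0.66 to 0.84) but not without heterozygous 2 and knockout 1 (0.73; edgeR adjusted p = 0.0910). Creld2 lies on chromosome 15 (88819646 to 88826681, + strand). Manf, a neurotrophic factor that is held in the ER and secreted on stress, had 100.1, 134, 135 and 96.7 CPM in knockout and 98.5, 111, 72.7 and 116 CPM in heterozygous libraries, with overlap (log2 fold change 0.23 ± 0.19; edgeR adjusted p = 0.485).

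The prolyl isomerases had log2 fold changes of opposite sign, and only Ppib passed the test. Ppib, cyclophilin B, a partner of collagen folding, had 618, 766, 678 and 543 CPM in knockout, against 376, 417, 371 and 519 CPM in heterozygous libraries. The groups did not overlap (1.55-fold; log2 fold change 0.63 ± 0.16; edgeR adjusted p = 0.0340). The call was kept in 2 of the 8 fits with a library omitted, those without heterozygous 4 (adjusted p = 0.0250) and knockout 4 (0.0433). It was lost without heterozygous 1, 2 or 3 (edgeR adjusted p = 0.0816, 0.0782 and 0.0871) or knockout 1, 2 or 3 (0.0677, 0.0572 and 0.0570), when scaled by library size only (adjusted p = 0.0557) or by upper-quartile factors (0.0605), without heterozygous 2 and knockout 1 (0.143) and without heterozygous 1 and knockout 2 (0.111). Ppib lies on chromosome 9 (66060169 to 66066629, + strand), and 825 of its exon bases (25.0%) overlap exons of Snx22, a sorting nexin gene on the other strand. Of its distinct 50-base stretches, 30.8% occur in transcripts of other genes, the highest share of any member. The count of Snx22 was 0.849 to 0.908 times that of Ppib in each of the 8 libraries. With no strand setting stated for the counting, Ppib and Snx22 reads cannot be told apart. Fkbp2, an FK506-binding isomerase, had 42.9, 62.3, 40.8 and 41.5 CPM in knockout, against 65.0, 61.1, 52.6 and 76.0 CPM in heterozygous libraries. Knockout 2 lay among the heterozygous libraries, and the difference did not pass the test (log2 fold change -0.44 ± 0.19; edgeR adjusted p = 0.167).

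**Figure D4:**
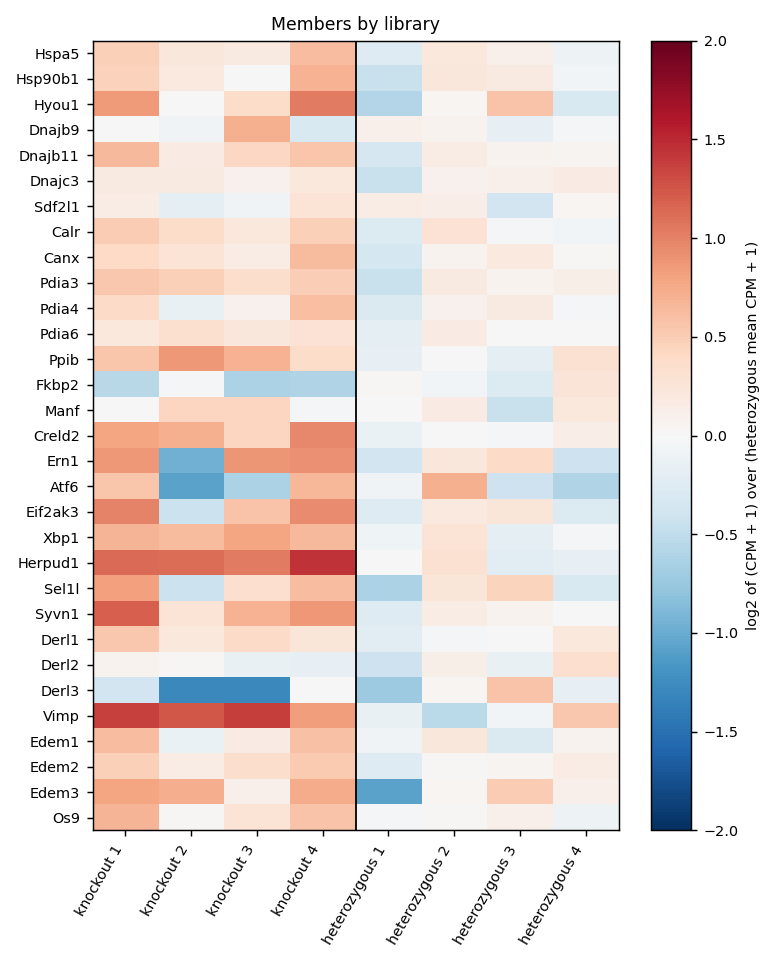
Each member (rows) in each library (columns, knockout left of heterozygous) as the log2 of CPM + 1 over the heterozygous mean CPM + 1; red is above and blue below that mean. Herpud1, Vimp, Syvn1, Creld2, Xbp1 and Ppib are above that mean in all 4 knockout libraries, as are others such as Pdia3 and Calr. Knockout 2 is the lowest knockout library for 15 of 31 members.

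Libraries differed in how far they carried the pattern. Among knockout libraries, knockout 2 was the lowest for 15 of 31 members and the highest for 3, whereas knockout 4 was the highest for 13 and knockout 1 for 11. Among heterozygous libraries, heterozygous 1 was the lowest for 18 of 31 and heterozygous 2 for 1. Knockout 2 had the fewest counts of the knockout libraries (12.1 M) and heterozygous 1 had 9.56 M, whereas heterozygous 2, with the fewest of all (9.11 M), was the highest heterozygous library for 11 members. The part of depth in this order was not tested. Without knockout 2 and heterozygous 1, 5 of 31 members were called higher. Their median log2 fold change over all 31 was 0.36, against -0.03 over all tested genes. The share of all tested genes called in that fit is not given here.

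Per length, on CPM per kilobase of merged GENCODE exons, the members' levels differed widely in both genotypes. Pdia3 (404 in knockout and 293 in heterozygous), Calr (316 and 240), Hspa5 (276 and 212), Pdia6 (253 and 211) and Ppib (197 and 127) were the highest in both genotypes. Xbp1 came next in knockout, at 158, and stood below Pdia4 in heterozygous cells, at 98.0. Herpud1 was at rank 12 in knockout and 19 in heterozygous cells, with 61.7 and 26.7 CPM per kilobase. The sensors stood at the low end, with Atf6 at rank 28 in both genotypes, Eif2ak3 at 5.21 and 3.34 and Ern1 at 0.304 and 0.159 CPM per kilobase. Neighbours in this order were not tested against each other, and exon lengths of merged transcripts are longer than the transcript present where isoforms differ.

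Counts for other genes of the same compartment are set against the 5.53% of all tested genes that edgeR called higher (DESeq2 8.56%, limma voom 5.83%). These lists too were chosen with earlier results of these data known, so their shares are descriptions. Of 38 tested folding genes outside the 31, 18 (47.4%) were higher in knockout and 0 lower (edgeR; 0 lower at an unadjusted p under 0.05; DESeq2 22 and 0, limma voom 19 and 0), with a median log2 fold change of 0.66. Fkbp14, a collagen-directed prolyl isomerase, ranged from 39.4 to 62.6 CPM in knockout and from 7.12 to 19.8 CPM in heterozygous libraries (4.07-fold; edgeR adjusted p = 0.00474). Fkbp7, of the same family, averaged 111 ± 18.2 and 36.1 ± 6.14 CPM (3.07-fold; edgeR adjusted p = 0.00103). The calcium-binding proteins Calu and Rcn3 rose 2.90-fold and 2.74-fold, Ero1l, the oxidase that recharges disulfide isomerases, 2.70-fold, and the isomerase Pdia5 2.35-fold. Each of these 6 genes was called whichever single library was omitted (8 fits).

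All 3 genes for KDEL receptors, which return escaped chaperones to the ER, were higher. Kdelr3 had 166, 49.7, 80.3 and 113 CPM in knockout and 9.88, 4.25, 6.62 and 7.55 CPM in heterozygous libraries (log2 fold change 3.85; edgeR adjusted p = 7.67e-04). Kdelr2 averaged 387 ± 40.9 and 148 ± 22.2 CPM (2.61-fold; edgeR adjusted p = 9.79e-04), and Kdelr1 246 ± 35.6 and 155 ± 19.1 CPM (1.59-fold; edgeR adjusted p = 0.0227). Kdelr1 was not called without heterozygous 1 or 3 or knockout 1 (edgeR adjusted p = 0.0561, 0.0604 and 0.0677), nor without heterozygous 2 and knockout 1 (0.128) or heterozygous 1 and knockout 2 (0.0790).

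Of 34 other tested ERAD genes 2 (5.88%) were higher, a share near the 5.53% of all tested genes, and 0 lower (edgeR; 1 lower at an unadjusted p under 0.05; DESeq2 5 and 0, limma voom 2 and 0), with a median log2 fold change of 0.22. Aup1, which recruits a ubiquitin-conjugating enzyme, had 241, 233, 195 and 228 CPM in knockout and 135, 142, 130 and 138 CPM in heterozygous libraries (1.65-fold; edgeR adjusted p = 0.00677). Erlin1, which tags sterol sensors and calcium channels for degradation, averaged 38.1 ± 14.8 and 18.4 ± 3.84 CPM (2.08-fold; edgeR adjusted p = 0.0459). With single libraries omitted, Erlin1 was called only without knockout 2 (edgeR adjusted p = 0.0153, against 0.0538 to 0.113 in the other 7). It was also not called when scaled by library size only (0.0752) or by upper-quartile factors (edgeR adjusted p = 0.0592), nor without heterozygous 2 and knockout 1 (0.0971). A further list held 28 genes, mainly regulators of the UPR and of the integrated stress response, which also signals through ATF4. It was not limited to regulators and included the cargo receptor gene Tmed2. In this list edgeR called 7 (25.0%) higher, against 5.53% of all tested genes, and 0 lower (also 0 lower at an unadjusted p under 0.05). DESeq2 called 8 higher and 0 lower, and limma voom 7 and 0. The median log2 fold change of the list was 0.44. Atf4 had 177, 181, 95.5 and 261 CPM in knockout and 59.6, 65.2, 51.1 and 71.3 CPM in heterozygous libraries (2.89-fold; edgeR adjusted p = 0.00644). Trib3 and Chac1, known targets of ATF4 and CHOP, rose 16.7-fold and 8.90-fold. Atf3 rose 2.02-fold, Creb3, an ER-anchored transcription factor gene, 1.71-fold and Tmed2, a cargo receptor gene of the vesicles that leave the ER, 1.72-fold, and each of these 6 was called whichever single library was omitted (8 fits).

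**Figure D5:**
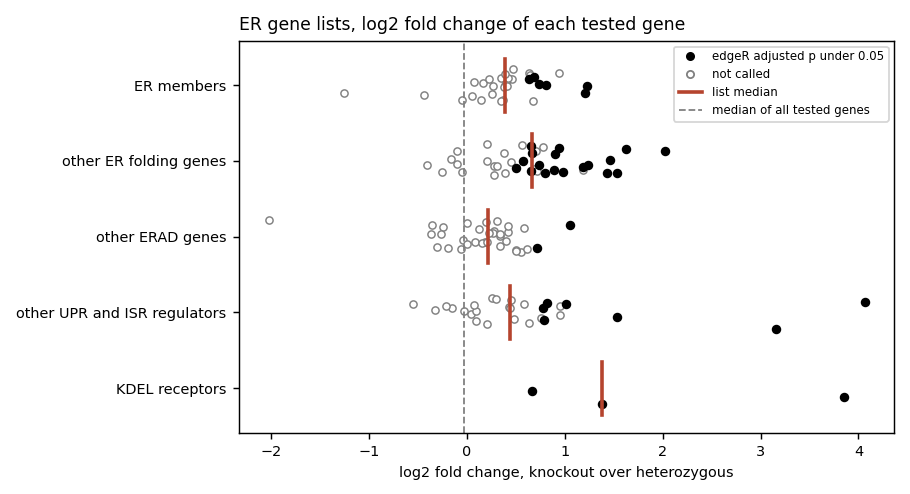
Log2 fold change of each tested gene of 5 lists, knockout over heterozygous (points, spread at random up and down), with filled points for an edgeR adjusted p under 0.05, a red bar at each list's median and a dashed line at the median of all tested genes (-0.03). The medians are 0.38 for the 31 members, 0.66 for other folding genes, 0.22 for other ERAD genes, 0.44 for the list of other regulators, which includes Tmed2, and 1.38 for the KDEL receptors.

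The calls and the markers of other cell types moved together across genotypes. With the neuron and radial glia score as a covariate, 0 members were called (edgeR; 4 higher and 1 lower at an unadjusted p under 0.05), the median log2 fold change of the members was 0.27, and Herpud1 and Vimp stood at 0.99 ± 0.26 and 1.36 ± 0.37. With the score over all non-endothelial lists, 0 were called (1 higher and 0 lower at an unadjusted p under 0.05), the median was 0.07, and 17 of 31 members were above 0. In that fit Vimp, Syvn1, Herpud1, Xbp1, Ppib and Creld2 stood at 1.85 ± 0.55, 0.75 ± 0.51, 0.75 ± 0.38, 0.66 ± 0.35, 0.63 ± 0.42 and 0.22 ± 0.35, while Hspa5, Calr, Canx, Pdia3, Pdia4, Pdia6, Hsp90b1 and Hyou1 were below 0. The median SE of the members was 0.44 there and 0.29 with the neuron and radial glia score, against 0.18 without a covariate. How many of all tested genes were called in these fits is not given here, so a loss particular to the members is not shown. Since the score did not overlap between genotypes, genotype and transcripts of other cell types cannot be told apart for these genes.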

How the data were processed

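The authors deposited 1 table of raw counts, a row for each gene symbol and a column for each of 8 libraries. TopHat2 (0.7), Cufflinks (2.2.1) and build mm10 appear in the submitters' processing notes. How reads were counted, with which strand setting and with what rule for reads matching several genes, is not given there. Per the labels, complementary DNA was made with SMART-Seq v4 and libraries with Nextera XT.

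Counts were analysed in R 4.3.3 with edgeR 4.0.16. Genes kept by filterByExpr (minimum count 10, minimum total 15) were scaled by TMM and tested, knockout over heterozygous, with the robust quasi-likelihood F-test, all 8 libraries and no covariate. P-values were adjusted by Benjamini-Hochberg over the 13540 tested genes and called under 0.05. SE is the size of the log2 fold change divided by the square root of F. CPM use TMM-scaled library sizes; log2 CPM used a prior count of 2. Alternatives were other scalings and filters, DESeq2 1.42.0, limma voom (limma 3.58.1), marker scores as covariates, the replicate number as a block, a dispersion without the robust option, and left-out libraries. On simulated counts for the same comparison (13213 genes tested), 35 of 100 genes changed 2-fold and 69 of 100 changed 4-fold were recovered, and 11 of 115 calls were false.

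Positions come from RefSeq (GRCm38.p6, the build mm10 names); 30 members matched by symbol and Vimp by synonym. Exon lengths, overlaps and 50-base stretches come from GENCODE M21. Members and lists were chosen with earlier results of these data known. Values in every library are given for members that were called, that did not overlap, that are sensors or that were most abundant in their role; from each other list up to 6 called genes by smallest p are named.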

Additional observations from a re-analysis of the deposited data

Results flagged for a closer look

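In 5 of 122 groups of 4 libraries (the 31 members and the called genes of the other lists, in each genotype) a library lay apart from the rest, its gap to the nearest other filling more of the group's range than Dixon's 95% critical value; chance gives about 5% of groups. Ern1, near the detection limit, was at 0.174 CPM in knockout 2, against 3.17 to 3.35 CPM in the other knockout libraries. Fkbp2 was at 62.3 CPM in knockout 2, against 40.8 to 42.9 CPM. Ppic, a prolyl isomerase gene of the other folding list, was at 587 CPM in knockout 2, against 522 to 526 CPM. Edem3 was at 8.54 CPM in knockout 3, against 13.7 to 14.4 CPM. Dnajc3 was at 73.4 CPM in heterozygous 1, against 107 to 112 CPM in the other heterozygous libraries.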

How the results depend on the processing

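The 6 members called higher became 3 with the replicate number as a replicate block, 2 without heterozygous 2 and knockout 1, and 0 with either marker score as a covariate (edgeR; 4 higher at an unadjusted p under 0.05 with the neuron and radial glia score and 1 with the non-endothelial score); over the fits that left out 1 library they numbered 4 to 6. The 30 other genes called higher over the 4 companion lists became 11 without heterozygous 2 and knockout 1, 2 with the neuron and radial glia score and 0 with the non-endothelial score (edgeR; 10 higher and 1 lower at an unadjusted p under 0.05), and 21 to 29 when 1 library was left out. The members' median log2 fold change of 0.38 was 0.066 with the non-endothelial score and 0.31 to 0.46 when 1 library was left out; with library size alone it was 0.27 while the median of all tested genes moved to -0.15, a gap of 0.42 against 0.41 with TMM. Same-numbered libraries were weakly correlated in their deviations from group means (-0.05 to 0.21). The best-matching knockout library carried the same number for heterozygous 2 only. Such correlations cannot show whether a number marks a shared litter or day, and the labels do not say that it does. Under the block the calls of Ppib, Xbp1 and Syvn1 were lost (adjusted p by edgeR 0.0991, 0.0540 and 0.0914). The calls of the companion lists numbered 21 there, with Kdelr1 and Erlin1 among those lost (edgeR adjusted p = 0.0821 and 0.109). No called member changed direction under any of the 21 alternatives. In the simulated data 35 of 100 genes changed 2-fold were recovered, so a gene that was not called is not shown to be unchanged. The cause of the lost calls was not tested. The members' median SE was 0.18 in the main fit, 0.21 with the block and 0.23 without heterozygous 2 and knockout 1. It was 0.29 with the neuron and radial glia score and 0.44 with the non-endothelial score. The share of all tested genes called in each alternative is not given here, so a loss particular to these lists is not shown.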

Other observations

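The 9 tested genes outside the members whose promoter window held ERSE had edgeR adjusted p-values of 0.116 to 0.921 and a median log2 fold change of -0.10. Alg12, a mannosyltransferase gene, had the largest value among them, at 28.0 ± 2.68 CPM in knockout and 17.1 ± 5.31 CPM in heterozygous libraries (log2 fold change 0.70 ± 0.26; edgeR adjusted p = 0.116). Of the 6 tested genes outside the members that held ERSE-II, Nucb1, a calcium-binding protein gene, was higher, at 591 ± 109 CPM in knockout and 302 ± 54.7 CPM in heterozygous libraries (edgeR adjusted p = 0.00974), and Lgalsl was lower, at 5.98 ± 0.760 and 14.3 ± 1.62 CPM (0.0160). These genes were named after their values were seen.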
